A study of Arabidopsis thaliana and Nicotiana tabacum with 16 samples.

Results

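The genes described here encode the plastid ribosomal proteins that Arabidopsis keeps in its nuclear genome. They were listed by gene identifier, with no measured value in the rule itself, and comprise 40 of the 27628 genes in the count tables, of which 27420 are nuclear. Of these, 9 encode proteins of the small 30S subunit, 24 encode proteins of the large 50S subunit and 7 encode plastid-specific ribosomal proteins (PSRPs). Chromosome 1 carries 12 of them, chromosome 2 carries 5, chromosome 3 carries 11, chromosome 4 carries 2 and chromosome 5 carries 10. Their coding sequences (CDS) are short, from 354 to 1248 bases with a median of 615, against a median of 1051.5 over all nuclear genes.

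Chloroplasts translate their own mRNAs on a ribosome of bacterial type, and its proteins come from both genomes. The nuclear-encoded proteins are made on cytosolic ribosomes, imported into the plastid and assembled there with plastid rRNA and with the ribosomal proteins that the plastid genome still encodes. The PSRPs were first described as chloroplast ribosomal proteins without a counterpart in the Escherichia coli ribosome, although some have relatives among other bacterial proteins. Ribo-seq sequences the mRNA fragments that ribosomes protect from nuclease, the ribosome-protected fragments (RPFs), so for these 40 genes it reports on cytosolic ribosomes, and for the plastid-encoded partners on plastid ribosomes.

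The series holds 16 libraries, 14 of them from wild-type Arabidopsis Col-0 seedlings and the rest from tobacco. From 8-day seedlings, grown with sucrose and longer days, 3 libraries were made with micrococcal nuclease (MNase; 75, 150 and 300 U) and 3 with RNase I (62.5, 125 and 250 U, the lowest rounded in its label). All other libraries came from 14-day seedlings under shorter days, with no sucrose named for their medium, and all were made with RNase I. They comprise the ligation-free and the ligation-based kit libraries (600 U, both rRNA-depleted), 2 libraries with the rRNA depletion cocktails V1 and V2 (600 U), 3 undepleted libraries (400, 550 and 700 U) and a repeat library from the same RPFs as the 700 U library. Depleted RPFs were selected in a narrower size range than undepleted RPFs. No condition was sequenced as biological replicates, so the doses of a nuclease, or the depleted libraries, stood as the group, and p-values measure only the spread between these libraries.

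The libraries held 2338819 to 11583740 counts over CDS, and the 40 genes took between 0.818% and 1.28% of them. Apart from PSRP3/2, with 11 to 104 counts per library, the lowest count of any member in any library was 281, and all 40 passed the filter on low counts in the 4 comparisons tested. Library V1, although labelled as 14-day, ranked genes more like the 8-day RNase I libraries (Spearman's rho of 0.974 to 0.978 over 11650 genes) than like the undepleted 14-day libraries (0.853 to 0.860), and V2 did so less sharply (0.900 to 0.903, against 0.825 to 0.831). The same holds for the ligation-free library (0.920 to 0.924, against 0.880 to 0.887) and the ligation-based library (0.911 to 0.915, against 0.879 to 0.880). The repeat library ranked genes like the other undepleted 14-day libraries (0.944 to 0.951) and less like the 8-day libraries (0.832 to 0.835). According to the methods, plant material and stage of the protocol varied between experiments, and results that rest on V1 or V2 are therefore also given without each.

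Before levels are compared, the gene pairs whose reads can be confused need to be known, because the authors kept a single alignment for a read with several equal placements. RPL12-A (AT3G27830) and RPL12-C (AT3G27850) lie close together on chromosome 3 and encode the stalk protein that, in bacteria, recruits translation factors to the ribosome. Their coding sequences match in 527 of 564 aligned bases (93.4%), and the last 252 coding bases before the stop codon are identical. This run starts at coding base 322 of RPL12-A (chr3:10318897-10319148, plus strand, TAIR10) and at coding base 310 of RPL12-C (chr3:10325214-10325465, plus strand), lies within the single CDS exon of each gene, and is shown because no RPF wholly inside it can be assigned to either gene.
RPL12-A and RPL12-C: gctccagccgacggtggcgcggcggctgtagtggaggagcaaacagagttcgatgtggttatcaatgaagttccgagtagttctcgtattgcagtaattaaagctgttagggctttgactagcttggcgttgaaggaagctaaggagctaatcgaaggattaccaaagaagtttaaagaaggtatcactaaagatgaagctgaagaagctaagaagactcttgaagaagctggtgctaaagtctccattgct
The 3 differences nearest to this run (capitals) lie just before it, in stretches of 90 bases at chr3:10318837-10318926 and at chr3:10325154-10325243 whose last 30 bases already belong to the run.
RPL12-A: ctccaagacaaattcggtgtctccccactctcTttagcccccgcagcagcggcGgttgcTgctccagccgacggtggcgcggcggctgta
RPL12-C: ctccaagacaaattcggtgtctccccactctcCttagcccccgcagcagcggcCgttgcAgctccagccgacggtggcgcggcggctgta
Cut into windows of 28 bases, a length within that of RPFs, 286 of 546 windows of RPL12-A (52.4%) and 286 of 534 windows of RPL12-C (53.6%) also occur in the other gene. Single values of RPL12-A and RPL12-C are therefore uncertain, and the pair is best read together.

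The 2 genes of RPL19, a protein at the interface of the subunits in bacteria, are easier to separate. RPL19-1 (AT4G17560) and RPL19-2 (AT5G47190) match in 555 of 672 aligned bases (82.6%), and only 16 windows are shared. Their most alike coding stretch of 90 bases, with 4 differences in capitals, spans an intron in both genes (chr4:9781006-9781184, plus strand, and chr5:19165201-19165378, minus strand).
RPL19-1: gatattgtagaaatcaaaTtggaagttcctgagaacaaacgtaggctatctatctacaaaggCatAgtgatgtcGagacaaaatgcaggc
RPL19-2: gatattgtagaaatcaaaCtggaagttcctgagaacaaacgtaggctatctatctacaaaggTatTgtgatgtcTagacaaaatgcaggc
PSRP3/1 (AT1G68590) and PSRP3/2 (AT5G15760) encode the plant forms of a protein that is also found in cyanobacteria and in some algal plastid genomes. They are further apart, with 348 of 479 aligned bases identical (72.7%) and 6 shared windows, and a stretch near the end of their CDS shows 27 differences in 90 bases (chr1:25757605-25757694, minus strand, and chr5:5143810-5143899, plus strand).
PSRP3/1: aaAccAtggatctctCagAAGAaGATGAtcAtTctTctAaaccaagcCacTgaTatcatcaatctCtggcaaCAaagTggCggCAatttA
PSRP3/2: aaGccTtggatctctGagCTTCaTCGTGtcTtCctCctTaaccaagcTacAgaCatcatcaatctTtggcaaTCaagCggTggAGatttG
Of the 40 genes, 34 have no window of 28 bases in another CDS, and 30 have no window that occurs more than once in the genome. Outside the RPL12 pair the largest share of repeated windows was in RPS21, with 142 of 636 (22.3%). RPFs from these windows cannot be placed with certainty, which limits all values of RPS21 below.

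The level of a gene per length is given as CPM per kb of CDS, the counts of a gene scaled to the library total and to its coding length, as a median over the 14 libraries. By this measure the 40 genes formed a narrow band near the top of the nuclear genome. Their median was 455 CPM per kb, with an interquartile range of 374 to 557, and 39 of them were among the top 3% of nuclear genes, whose overall median was 3.09 CPM per kb. Without PSRP3/2 the highest level was 2.97-fold the lowest. The 50S proteins had a median of 471 CPM per kb, the 30S proteins of 434 CPM per kb and the PSRPs of 378 CPM per kb. For comparison, the 26 annotated entries of plastid-encoded ribosomal proteins had a median of 417 CPM per kb, 75 genes of cytosolic ribosomal proteins of 199 CPM per kb, 14 plastid translation factors of 99.9 CPM per kb and 9 plastid ribosome assembly factors of 38.2 CPM per kb. The 26 plastid-encoded entries stand for 21 gene names, because genes of the plastid inverted repeat, such as rpl23, are entered more than once. The cytosolic list was picked by the wording of the reference gene descriptions and need not be complete. It includes duplicated genes, and its lower quartile was at 18.4 CPM per kb.

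The highest levels belonged to RPL13, an early assembly protein in bacteria, with a median of 663 CPM per kb (514 to 763 over the libraries), to RPL34, a small protein of the bacterial 50S core, with 654 CPM per kb (256 to 754), and to RPL12-C with 654 CPM per kb (477 to 788). The lowest were PSRP1, a relative of bacterial hibernation factors, with 250 CPM per kb (113 to 380), RPL19-1 with 223 CPM per kb (148 to 255) and PSRP3/2 with 10.7 CPM per kb (6.76 to 16.4). Neighbours in the order mostly do not differ beyond their spread, as the library ranges overlapped in 38 of 39 neighbouring pairs, and the exception is the step down to PSRP3/2. The ends of the band were nevertheless apart, since 18 members stayed in every library below the lowest value of RPL13. When only the 8-day libraries were used, RPL27 led, followed by RPL13 and RPL31, and when only the 14-day libraries were used, RPL12-C led, followed by RPL34 and RPL13, and RPL19-2 took the place of PSRP1 among the 3 lowest.

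**Figure D1:**
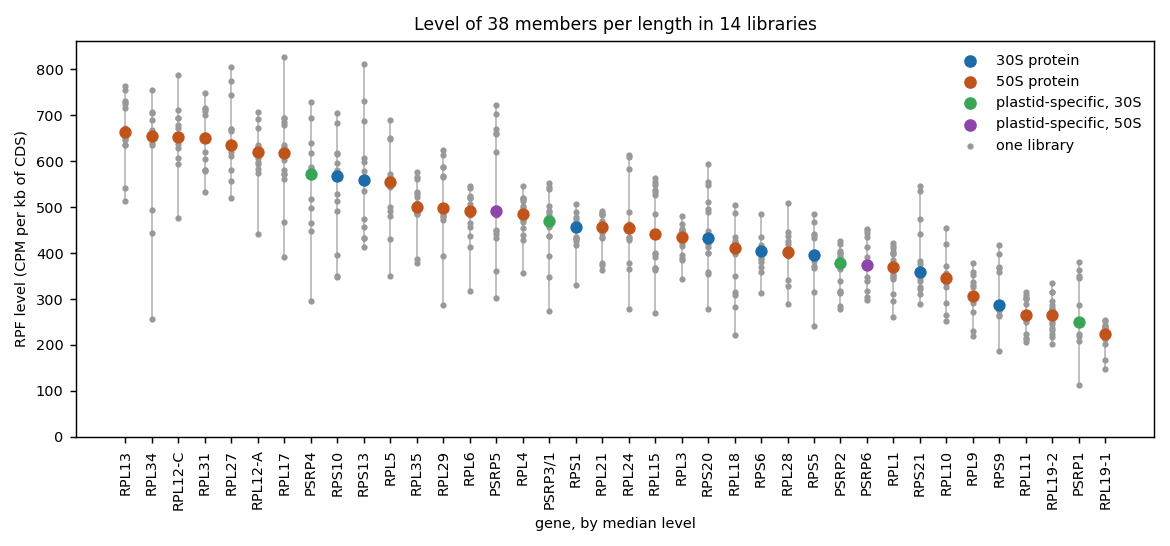
RPF level per length (CPM per kb of CDS, vertical axis) of 38 of the 40 genes, ordered by their median over 14 libraries, with small points for single libraries and coloured points for medians. The medians decline smoothly between 663 CPM per kb for RPL13 and 223 CPM per kb for RPL19-1, with overlapping ranges of neighbours, and PSRP3/2 at 10.7 CPM per kb is not drawn.

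Within 2 of the 3 gene pairs, the same gene was higher in every library, while the size of the ratio varied. PSRP3/1 exceeded PSRP3/2 in 14 of 14 libraries, by 24.7-fold to 74.4-fold with a median of 44.8-fold, a ratio that rests on the low counts of PSRP3/2. RPL19-1 was below RPL19-2 in 14 of 14 libraries (ratio of 0.710 to 0.991, median 0.833). The ratio of RPL12-A to RPL12-C was 0.828 to 1.04 with a median of 0.946, which also depends on how shared reads were placed.

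Upstream of the genes, 2 short motifs known from promoters of plant ribosomal protein genes were searched on both strands in the 250 bases before each annotated gene start. The site II element was searched in the form GGCCCA only, and other forms were not counted. This form was present in 12 of 40 genes (30%), against 34 of 75 genes of cytosolic ribosomal proteins (45.3%) and 3743 of 27418 nuclear genes (13.7%). It was found before 6 of 9 genes of 30S proteins (66.7%), 5 of 24 genes of 50S proteins (20.8%) and 1 of 7 PSRP genes (14.3%). The telo box (AAACCCTAA) was found before 0 of 40 genes, against 10 of 75 genes of cytosolic ribosomal proteins (13.3%) and 2.61% of nuclear genes. A match describes these letters only and is not evidence of a bound factor. The windows below, in the direction of transcription with the motif (TGGGCC where it lies on the other strand) in capitals, are shown because RPS10 carries the element in a repeated context and because both RPL19 genes carry several copies (RPS10, chr3:4221770-4221799 and chr3:4221725-4221754, minus strand; RPL19-1, chr4:9780187-9780216, plus strand; RPL19-2, chr5:19166147-19166176, minus strand).
RPS10, distal: aactataaaataTGGGCCtaatgggtactt
RPS10, proximal: aactatacaattTGGGCCtaatgggtattc
RPL19-1: tgatatactaaaGGCCCAcaataacaaacg
RPL19-2: cctaaatgtctaGGCCCAtaaaattagtaa

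The MNase and RNase I libraries of 8-day seedlings address whether the nuclease alters the measured translatome. For plastid ribosomal proteins the difference was small and in a single direction. With edgeR (Benjamini-Hochberg adjusted p under 0.05 over 16738 genes), 11 of the 40 genes were higher with MNase, against a background of 1.3% of all genes, and 0 were lower (background 0.633%; 1.94% in either direction). At an unadjusted p under 0.05, 18 were higher and 1 was lower, and DESeq2 called 12 higher and 0 lower. The background includes genes with far fewer counts, in which small changes are harder to call. With a minimum of 50 counts, 3.62% of all genes were called in either direction, and 11 of 39 members tested were higher. The part of count level in this contrast was not tested. The median log2 fold change of the 40 genes was 0.11, against -0.01 for all genes tested, and 35 of 40 were above 0. Calls were spread over 4 of 9 30S proteins, 6 of 24 50S proteins and 1 of 7 PSRPs. The libraries of both nucleases did not overlap for 19 of 40 genes, against 17.1% of all genes.

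Levels in the following are CPM scaled by TMM over all libraries, in the order of rising dose. PSRP5, a PSRP of the 50S subunit, had 281, 293 and 295 CPM with MNase, against 190.4, 198 and 194 CPM with RNase I. Every MNase library lay well above every RNase I library, with a log2 fold change of 0.57 (SE 0.067, adjusted p = 1.64e-07, edgeR). RPS21, a protein that in bacteria contacts mRNA during initiation, had 321, 356 and 365 CPM with MNase, against 251, 232 and 240.3 CPM with RNase I (0.52 on the log2 scale, adjusted p = 9.88e-07, edgeR). Part of the RPS21 sequence occurs more than once in the genome, as given above. Next came RPL24, an initiator of 50S assembly in bacteria, with 372, 364 and 348 CPM with MNase, against 268, 289 and 271 CPM with RNase I (0.39, adjusted p = 0.000132, edgeR). The same separation was seen for 3 proteins that lie in the head of the 30S subunit in bacteria. RPS9 had 236, 229.7 and 225 CPM with MNase, against 176, 177 and 179 CPM with RNase I (0.37). RPS13 had 385, 402 and 449 CPM with MNase, against 301, 331 and 325 CPM with RNase I (0.37). RPS10 had 359.5, 405 and 356 CPM with MNase, against 279.6, 302 and 292 CPM with RNase I (0.36). The other genes called higher were RPL10, RPL27, RPL13, RPL5 and RPL3, with log2 fold changes between 0.23 and 0.31. All 5 lost their call without the 62.5 U RNase I library, which left 6 genes called, and all but RPL27 without the 125 U library, which left 7.

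Among the remaining PSRPs none passed the test. PSRP4, a relative of a small 30S protein of Thermus, had 207, 219.7 and 208 CPM with MNase, against 224, 244 and 255 CPM with RNase I (-0.19, adjusted p = 0.184, edgeR). PSRP3/2 had the widest error, with 7.46, 9.01 and 6.14 CPM with MNase, against 4.25, 4.62 and 3.67 CPM with RNase I (0.86, SE 0.331, adjusted p = 0.232, edgeR). Its groups did not overlap, but the RNase I values rest on 19 to 25 counts. PSRP1, PSRP2, PSRP3/1 and PSRP6 had log2 fold changes between 0.03 and 0.11.

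Partners of the plastid ribosome behaved less uniformly in the same libraries. Of 26 plastid-encoded ribosomal protein entries, 3 were higher and 3 were lower with MNase, with a median log2 fold change of 0.01. The higher entries were rps14 and both copies of rpl23. Of 14 plastid translation factors, 2 were higher, the ribosome recycling factor RRF (0.60) and AT3G08740, an elongation factor P homologue (0.32). None of 9 assembly factors passed the edgeR test, with 3 at an unadjusted p under 0.05. Markers of green tissue moved in the same direction as the ribosomal proteins. Of 10 such markers, 8 were higher with MNase (median 0.19), and their summed level was 61263 to 62017 CPM with MNase, against 52544 to 56240 CPM with RNase I. The 8 root markers summed to 2073 to 2225 CPM with MNase and 2276 to 2368 CPM with RNase I, and no marker of either list was at 0 in these libraries. The part of tissue composition in the result was not tested.

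**Figure D2:**
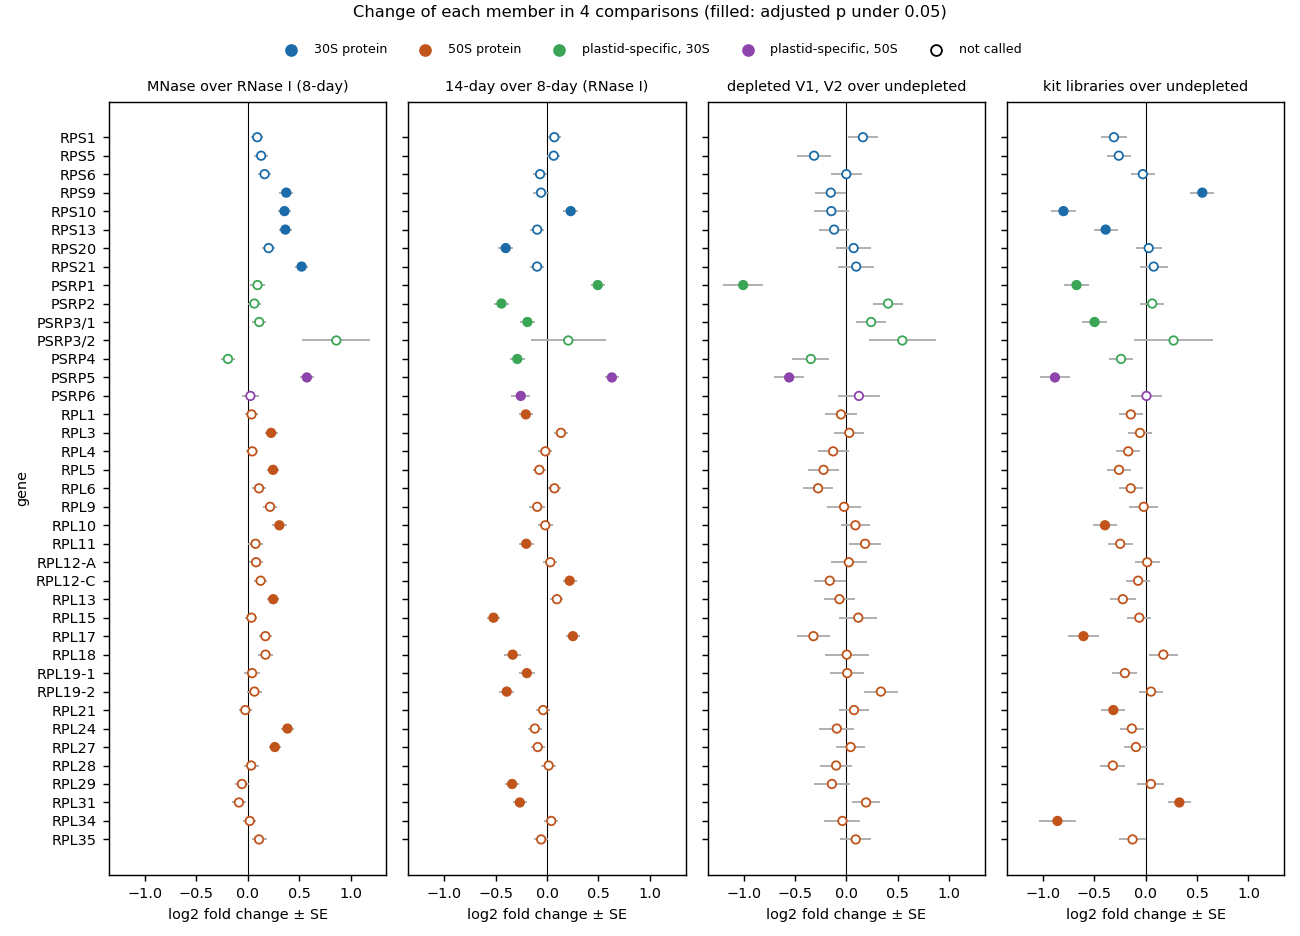
Log2 fold change with its standard error (horizontal axis) of 39 of the 40 genes in 4 comparisons, coloured by subunit, with filled points for an adjusted p under 0.05 in edgeR. The 11 called genes of the MNase comparison all lie above 0, the 14-day comparison has 5 called above and 13 below 0 among the genes drawn, and PSRP5 is filled in all 4 panels.

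The undepleted 14-day libraries and the 8-day RNase I libraries differ in age, light cycle, medium and dose together. Of the 40 genes, 5 were higher in 14-day seedlings (background 25.3% of 15460 genes) and 14 were lower (background 25.1%), so the share called in either direction, 47.5%, was near that of all genes, 50.4%. The libraries of the 2 ages did not overlap for 21 of 40 genes, against 56.7% of all genes. The changes were small, with a median of -0.07 on the log2 scale and 0 of 40 genes at 1 or more in either direction, against 19.9% of all genes. That background includes genes with low counts, whose fold changes are less precise. In bulk seedlings, fewer cells of a type and less RNA per cell cannot be told apart. Root markers were lower in 14-day seedlings (7 of 7 tested, summed level of 1093 to 1219 CPM, against 2276 to 2368 CPM in 8-day seedlings; AT1G12560 was at 0 in the 700 U library), and 8 of 10 green markers were higher. Their part in the changes was not tested.

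The genes with the largest increases were PSRPs, while other PSRPs were lower. PSRP5 had 299, 287 and 319 CPM in 14-day seedlings, against 190.4, 198 and 194 CPM in 8-day seedlings (log2 fold change of 0.63, SE 0.069, adjusted p = 1.42e-11, edgeR). PSRP1 had 337, 308 and 323 CPM in 14-day seedlings, against 226, 228 and 231 CPM in 8-day seedlings (0.49, adjusted p = 9.85e-09, edgeR). For both genes these 3 14-day libraries lay above all 8-day libraries. In the repeat library from the same 700 U RPFs, PSRP1 again had 323 CPM, but PSRP5 had 212 CPM. For PSRP5 the repeat thus differed from the first library by -0.59 on the log2 scale, about as much as the ages. With the repeat in place of the first, the fold change of PSRP5 was 0.44. In the opposite direction, PSRP2, which carries RNA recognition motifs, had 231, 229 and 209.8 CPM in 14-day seedlings, against 303, 302 and 299.9 CPM in 8-day seedlings (-0.44, adjusted p = 2.12e-07, edgeR). PSRP4 (-0.29), PSRP6 (-0.26) and PSRP3/1 (-0.19) were also lower, and PSRP3/2 had 4.98, 4.54 and 4.87 CPM in 14-day seedlings, against 4.25, 4.62 and 3.67 CPM in 8-day seedlings (0.21, adjusted p = 0.666, edgeR). Thus 6 of 7 PSRPs were called, with 2 higher and 4 lower, where 50.4% of all genes were called. The calls of PSRP6 and PSRP3/1 depended on single libraries. PSRP6 had 110.4, 119 and 171 CPM in 14-day seedlings, against 149.7, 173 and 158 CPM in 8-day seedlings, so that its groups overlapped, and its call was lost with DESeq2 and without the 400 U, the 550 U or the 125 U library (adjusted p of up to 0.312, edgeR). PSRP3/1 lost its call without the 400 U, the 125 U or the 250 U library (adjusted p of up to 0.0958, edgeR).

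Of the subunit proteins, RPL15, which in bacteria binds rRNA in 50S assembly, changed most. It had 312, 321 and 304 CPM in 14-day seedlings, against 438, 459 and 441 CPM in 8-day seedlings (-0.52, SE 0.065, adjusted p = 6.78e-10, edgeR). RPS20, an early binder of 30S rRNA in bacteria, had 233, 208 and 241 CPM in 14-day seedlings, against 297, 309 and 293 CPM in 8-day seedlings (-0.40). RPL19-2 had 144, 163 and 153 CPM in 14-day seedlings, against 196, 215 and 190.3 CPM in 8-day seedlings (-0.39). RPL29, near the exit of the bacterial peptide tunnel, had 242, 241 and 244 CPM in 14-day seedlings, against 302, 323 and 291 CPM in 8-day seedlings (-0.34). In each of these 4 genes all 14-day libraries lay below all 8-day libraries. RPL18, RPL31, RPL1, RPL11 and RPL19-1 were lower by smaller amounts (-0.33 to -0.20). RPL11 and RPL19-1 lost their calls with DESeq2 and without the 400 U, the 550 U or the 125 U library. RPL11 also did so without the 250 U library, and RPL19-1 without the 62.5 U library. The adjusted p reached 0.112 for RPL11 and 0.134 for RPL19-1 (edgeR). RPL1 lost its call without the 400 U or the 550 U library (adjusted p of up to 0.0885, edgeR). The 14-day and 8-day groups of RPL11 overlapped. Besides the PSRPs, the higher genes were RPL17 (0.25), RPS10 (0.23) and RPL12-C (0.22), and RPL12-A, which shares reads with RPL12-C, was at 0.03 (adjusted p = 0.732, edgeR).

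These small calls depended on which 700 U library was used. With the repeat library in place of the first, 2 genes stayed higher (PSRP5 and PSRP1), since RPL17, RPS10 and RPL12-C lost their call, and 18 were lower. Without the 400 U library 8 genes were lower, and with DESeq2 10 genes were lower. RPL18 shows the range, with 154, 152 and 205 CPM at 400, 550 and 700 U and 139 CPM in the repeat library, so that the repeat differed from its first version by -0.57 on the log2 scale.

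The plastid-encoded partners moved much further. Of 25 entries tested, 24 were lower in 14-day seedlings, with a median log2 fold change of -1.36, and none was higher. Here and below, copies of inverted-repeat genes count as separate entries, although they are not independent. Of 14 translation factors 5 were higher and 5 lower, of 9 assembly factors 3 were higher and 5 lower, and of 65 cytosolic ribosomal proteins 8 were higher and 36 lower (median -0.28). The ratio of all counts of the 40 genes to all counts of plastid-encoded ribosomal proteins within a library does not depend on its scaling. It was 4.68, 4.56 and 6.42 in the 14-day libraries, against 2.07, 2.16 and 2.19 in the 8-day libraries, a 2.41-fold difference of the geometric means. The 2 groups did not overlap, and the 2-sided exact permutation test gave p = 0.1, the smallest that 3 against 3 libraries allow. The repeat library had a ratio of 5.14. With MNase the ratio was 2.10, 2.49 and 2.56, against the same 3 RNase I values (p = 0.3, exact permutation test).

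**Figure D3:**
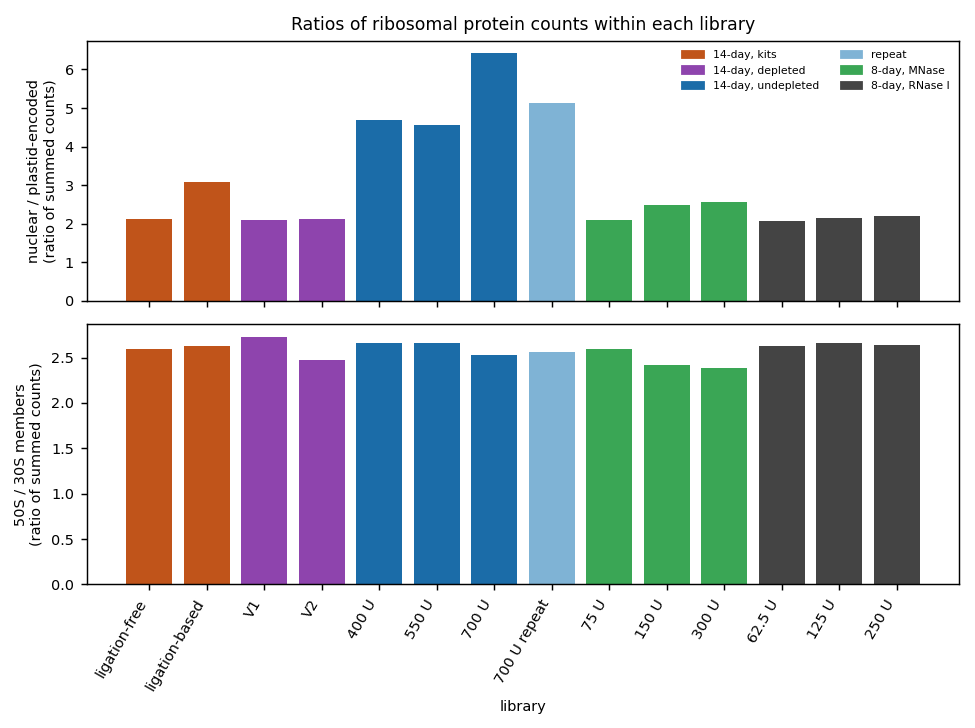
Ratios of summed counts within each library (vertical axes), above for the 40 nuclear-encoded over the plastid-encoded ribosomal proteins and below for 50S over 30S members, with bars coloured by group. The upper ratio is 4.56 to 6.42 in the undepleted 14-day libraries and at most 3.09 in the depleted, kit and 8-day libraries, while the lower ratio stays between 2.38 and 2.73 in all.

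The summed RPF counts of 50S and 30S proteins stood in a narrow range of proportions. The ratio of summed counts of the 24 50S proteins to those of the 9 30S proteins was between 2.38 and 2.73. It was 2.59, 2.42 and 2.38 with MNase, against 2.63, 2.65 and 2.64 with RNase I, a log2 difference of -0.10 without overlap (p = 0.1, exact permutation test). With the PSRPs except PSRP1 counted in their subunit the groups overlapped, at 2.043 to 2.178 with MNase, against 2.139 to 2.175 with RNase I. The log2 difference was then -0.04 (p = 0.4, exact permutation test). In the other 3 comparisons the log2 difference without the PSRPs was between -0.01 and 0.00 (p = 1 each, exact permutation test). Taken as a ratio of median counts per kb, the difference was -0.16 with MNase (p = 0.1, exact permutation test) and -0.17 in the kit libraries (p = 0.2). By that measure it was -0.02 for 14-day against 8-day libraries (p = 0.8) and -0.07 for depleted against undepleted libraries (p = 0.5, exact permutation tests).

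The depleted libraries V1 and V2 and the undepleted libraries, all labelled as 14-day, address whether rRNA removal alters the RPFs of genes. Depletion, size range and dose change together here, and because V1, and less sharply V2, ranked genes more like the 8-day libraries, a difference in age or plant material cannot be told apart from depletion either. Of the 40 genes, 0 were higher (background 10.9% of 15532 genes) and 2 were lower (background 11.7%) in edgeR, while 1 was higher and 2 were lower at an unadjusted p under 0.05, and DESeq2 gave 0 and 2 as well. The median log2 fold change was -0.01, and the groups did not overlap for 16 of 40 genes, against 52.9% of all genes. Both lower genes were PSRPs. PSRP1 had 189 (V1) and 127 (V2) CPM in the depleted libraries, against 337, 308 and 323 CPM in the undepleted libraries and 323 CPM in the repeat (log2 fold change of -1.005, SE 0.198, adjusted p = 0.00995, edgeR). PSRP5 had 209 (V1) and 196 (V2) CPM in the depleted libraries, against 299, 287 and 319 CPM in the undepleted libraries (-0.56, SE 0.148, adjusted p = 0.0291, edgeR). In the repeat library, however, PSRP5 had 212 CPM, close to the depleted libraries, and with it in place of the first 700 U library the call of PSRP5 was lost (adjusted p = 0.194, edgeR).

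The count rests on single libraries. In fits that assume that the lone depleted library varies like the undepleted ones, the calls changed with the cocktail. Without V1, 15 genes were lower and 1 was higher (PSRP2), with a median of -0.20. Without V2, 3 were lower (PSRP1, PSRP5 and RPL17) and 5 were higher (PSRP2, PSRP3/1, RPL11, RPL15 and RPL19-2), with a median of 0.03. Without any of the 3 undepleted libraries no gene was called, and PSRP1 then had an adjusted p of 0.052 to 0.0624 (edgeR). PSRP1 and PSRP5 were lower whichever cocktail was left out. PSRP2 had 292 CPM in V1 and 292 CPM in V2, against 231, 229 and 209.8 CPM in the undepleted libraries (0.41, adjusted p = 0.0733, edgeR). PSRP4 had 179 and 128 CPM in V1 and V2, against 199, 193 and 202 CPM in the undepleted libraries (-0.35, adjusted p = 0.198, edgeR).

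Plastid-encoded ribosomal proteins again moved apart from their nuclear-encoded partners, with 24 of 25 entries higher in the depleted libraries (median 1.24). The ratio of nuclear-encoded to plastid-encoded counts was 2.10 in V1 and 2.13 in V2, against 4.68, 4.56 and 6.42 in the undepleted libraries (0.410-fold, p = 0.1, exact permutation test, the smallest possible). Both depleted libraries thus lay within the 2.07 to 2.19 of the 8-day RNase I libraries. PSRP5, at 209 CPM in V1 and 196 CPM in V2, lay near the 190.4 to 198 CPM of those libraries. It was also near the 212 CPM of the undepleted repeat library. PSRP1, at 189 CPM in V1 and 127 CPM in V2, lay below the 226 to 231 CPM of the 8-day RNase I libraries. Root markers were higher in the depleted libraries (5 of 5 tested, summed level of 2484 CPM in V1 and 1512 CPM in V2, against 1093 to 1219 CPM in the undepleted libraries, with AT3G62680 at 0 in V2 and AT1G12560 at 0 in the 700 U library), while 0 of 10 green markers were called. Their part in these differences was not tested.

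The kit libraries, both depleted, were set against the same 3 undepleted libraries, and both comparisons therefore share those values. Depletion, size range, dose and library kit change together here. Both kit libraries also ranked genes more like the 8-day libraries, so a difference in age or plant material cannot be told apart from these either. Of the 40 genes, 2 were higher (background 13.4% of 14823 genes) and 9 were lower (background 14.5%), and the median log2 fold change was -0.14. The groups did not overlap for 24 of 40 genes, against 50.9% of all genes. The members with the most negative fold changes were PSRP5, with 126 (ligation-free) and 200.5 CPM (ligation-based) in the kit libraries, against 299, 287 and 319 CPM in the undepleted libraries (-0.88, adjusted p = 8.13e-05, edgeR), and RPL34, with 113 and 234 CPM in the kit libraries, against 319, 299 and 324 CPM in the undepleted libraries (-0.86, adjusted p = 0.000951, edgeR). RPL34 lost its call with DESeq2, and of the kit libraries the ligation-free library was the lower. RPS10 had 187 and 201 CPM in the kit libraries, against 315, 321 and 390.1 CPM in the undepleted libraries (-0.80, adjusted p = 3.17e-05, edgeR). PSRP1 had 194 and 205 CPM in the kit libraries, against 337, 308 and 323 CPM in the undepleted libraries (-0.67, adjusted p = 0.000124, edgeR). For RPS10 and PSRP1 both kit libraries lay well below every undepleted library. RPL17 (-0.61), PSRP3/1 (-0.50), RPL10 (-0.40), RPS13 (-0.39) and RPL21 (-0.32) were also lower. RPS9 was higher, with 232 and 261 CPM in the kit libraries, against 165, 167 and 180.3 CPM in the undepleted libraries (0.55, adjusted p = 0.000974, edgeR), and so was RPL31, an L31 family protein that in bacteria links the subunits, with 303 and 310.0 CPM in the kit libraries, against 251, 242 and 250.3 CPM in the undepleted libraries (0.33, adjusted p = 0.0326, edgeR). The call of RPL31 was lost with DESeq2 and without any 1 of the undepleted libraries, which left 1 gene higher. RPL10 and RPL21 likewise lost their calls without any 1 of the undepleted libraries (adjusted p of 0.0529 to 0.0602 and of 0.0578 to 0.188, edgeR) and without the ligation-free library, RPL21 also with DESeq2, and RPS13 lost its call without the 400 U or the 700 U library (up to 0.0719). With the repeat 700 U library in place of the first, RPL17, RPS13 and RPL31 lost their calls.

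In fits that assume that a lone kit library varies like the undepleted ones, 14 genes were lower without the ligation-based library and 9 without the ligation-free library, with 2 higher in each. Of the plastid-encoded entries, 22 of 25 were higher in the kit libraries (median 0.84), and the ratio of nuclear-encoded to plastid-encoded counts was 2.13 in the ligation-free and 3.09 in the ligation-based library, against 4.68, 4.56 and 6.42 in the undepleted libraries (0.498-fold, p = 0.1, exact permutation test). Root markers summed to 1419 CPM in the ligation-free and 1431 CPM in the ligation-based library, against 1093 to 1219 CPM in the undepleted libraries (3 of 5 tested were higher, AT1G12560 at 0 in the ligation-based library), and 5 of 10 green markers were lower. Their part was not tested.

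Across the 4 comparisons, 10 of the 40 genes were called in none, 21 in 1, 6 in 2 and 2 in 3, and PSRP5 was the single gene called in all. These are 25%, 52.5%, 15%, 5% and 2.5% of the 40 genes, against 43.1%, 25.8%, 16.8%, 13.8% and 0.525% of the 14477 genes tested in all 4 comparisons. Since the last 2 comparisons share their undepleted libraries, and the 14-day libraries and the 8-day RNase I libraries each enter more than 1 comparison, these calls are not independent. PSRP5 was high in the MNase libraries (281 to 295 CPM) and in the 3 undepleted 14-day libraries (287 to 319 CPM), and at 126 to 212 CPM in all the others, which include the repeat library.

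**Figure D4:**
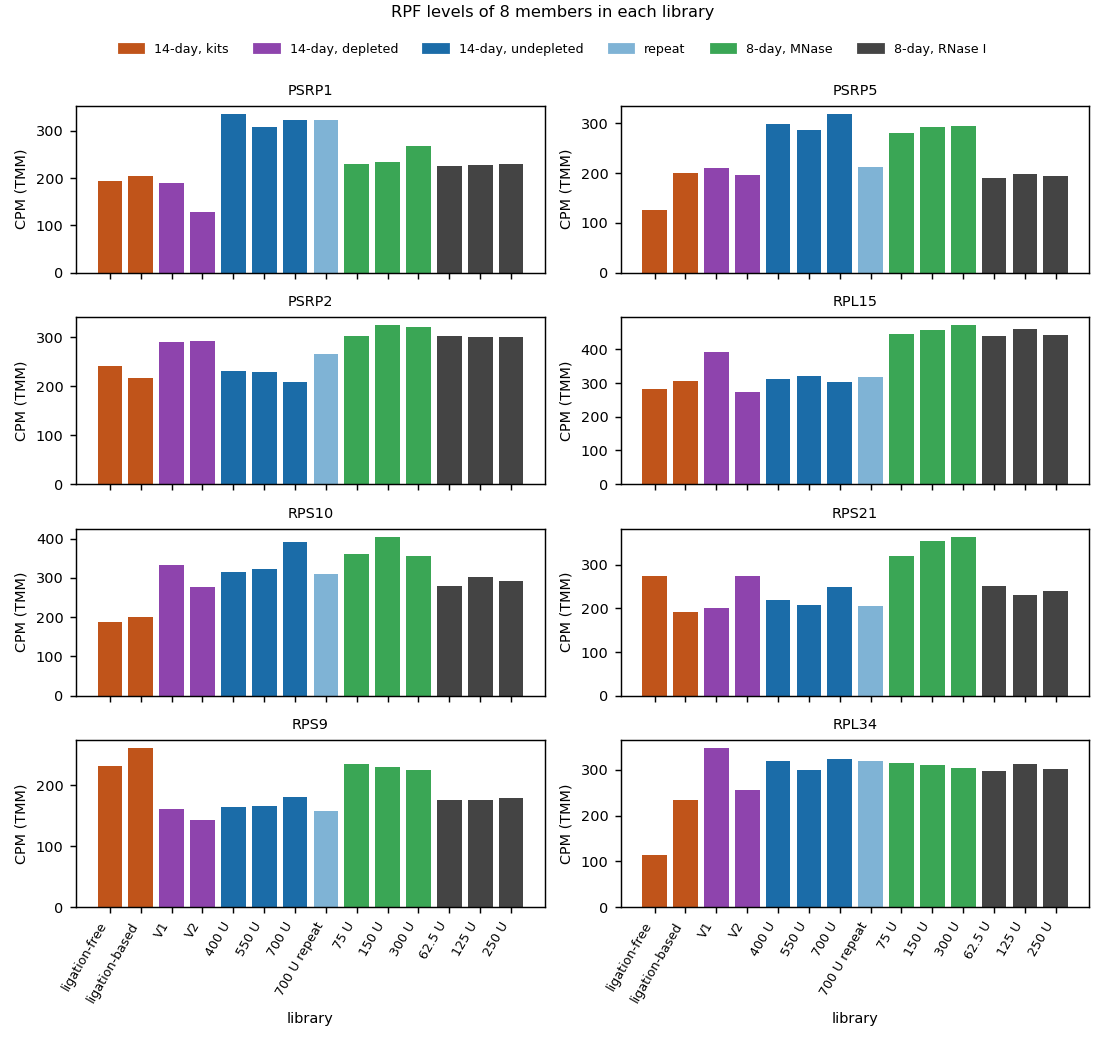
Levels (CPM scaled by TMM, vertical axes from 0) of 8 of the 40 genes with large changes in each of 14 libraries, with 1 bar for each library coloured by group. PSRP1 is highest in the 4 undepleted 14-day libraries (308 to 337 CPM), PSRP5 is high with MNase and in 3 of these 4, and RPL34 drops only in the kit libraries, to 113 and 234 CPM, and in V2, to 255 CPM.

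Cocktails V1 and V2 have a single library each, so their ratios were not tested. On the scale of library totals, the 40 genes were higher in V1 by a median log2 ratio of 0.48 (38 above 0 and 2 below), against 0.28 for all genes. Of the 40 genes, 18 were higher by at least 0.5, against 34.1% of all genes, and none was lower by as much, against 10.8%. With TMM scaling the median ratio was 0.15, with 29 of 40 genes above 0, against -0.05 for all genes, because V2 had a scaling factor of 0.819 while the other libraries had 0.980 to 1.066. PSRP1 had 193 CPM in V1 and 104 CPM in V2 (log2 ratio of 0.89, 95% exact counting interval of 0.75 to 1.04). RPL18, which binds the small rRNA of the 50S subunit in bacteria, had 203 CPM in V1 and 113 CPM in V2 (0.85). Below 0 were RPS21 with 207 CPM in V1 and 225 CPM in V2 (-0.12, interval of -0.24 to -0.01) and PSRP3/2 with 42 and 35 counts (-0.18, interval of -0.86 to 0.51). Among the others RPS13 had the lowest ratio (0.13).

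For the ligation-free and ligation-based libraries the 40 genes were centred near 0 (median log2 ratio of -0.01, against 0.06 for all genes), and 3 genes lay beyond 0.5 in each direction (backgrounds 14.6% above and 9.6% below). RPL9 had 208 CPM in the ligation-free and 136 CPM in the ligation-based library (0.61, interval of 0.43 to 0.80). RPS21 had 292 and 192 CPM in the ligation-free and ligation-based libraries (0.61), and RPL29 had 305 and 204 CPM (0.58). In the other direction RPL34 had 120.5 CPM in the ligation-free and 233 CPM in the ligation-based library (-0.95, interval of -1.13 to -0.78). PSRP5 followed with 134 and 199.8 CPM (-0.58), and RPL17, near the exit of the peptide tunnel in bacteria, with 248 and 356 CPM (-0.52). The plastid-encoded entries were higher in the ligation-free library in 23 of 25 cases (median 0.56). Intervals cover counting error only, since PCR copies are not independent molecules.

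The repeat of the 700 U library was made from the same RPFs with more PCR cycles and gives a measure of the difference between libraries of 1 sample. The 40 genes differed from the first library by a median of 0.16 in absolute log2 ratio, against 0.30 for 13680 genes with at least 10 counts in both, with PSRP5 at -0.59 and PSRP3/2 at 0.47. The 13680 genes include many with low counts, which vary more by counting error alone. For comparison, the 550 and 400 U libraries differed by a median of 0.07. Within the groups of 3 libraries, the coefficient of variation of a gene had a median of 5.74% with MNase, 5.33% in the undepleted 14-day libraries and 3.77% with RNase I in 8-day seedlings.

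**Figure D5:**
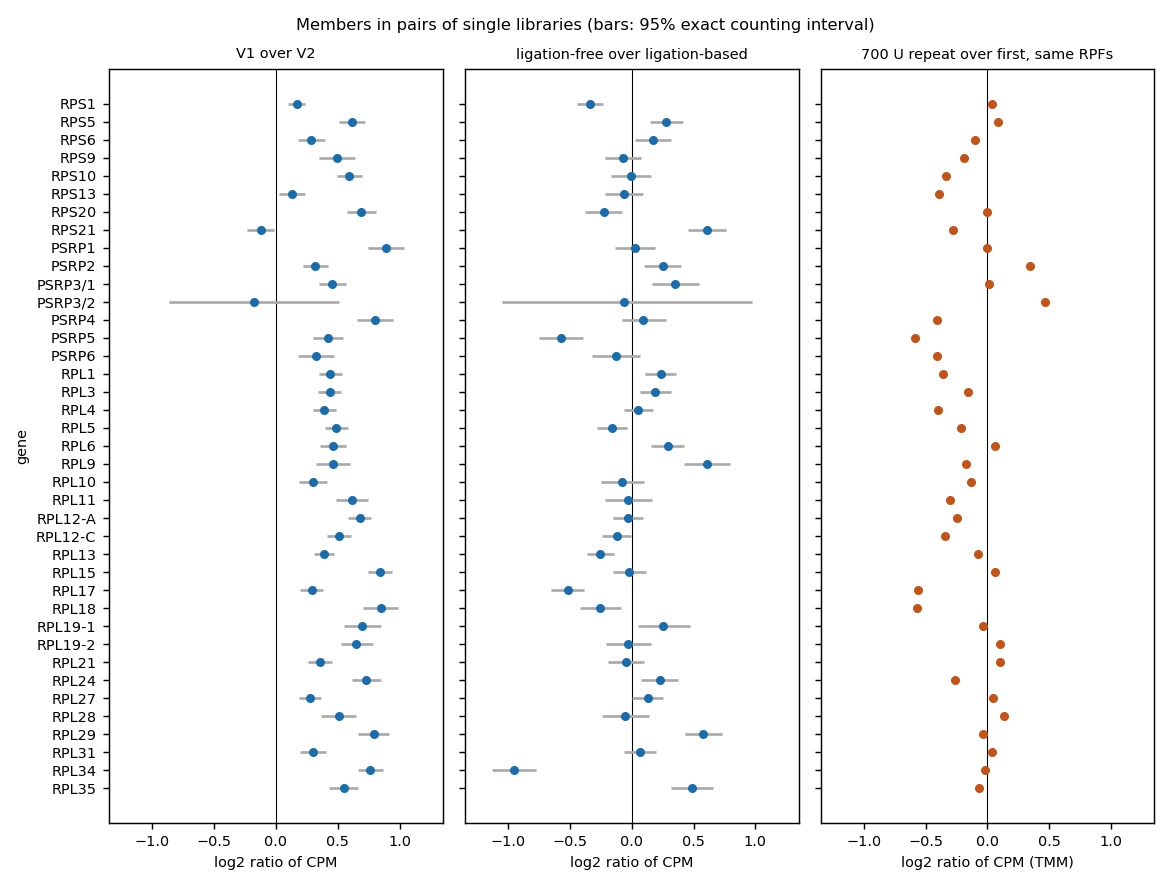
Log2 ratio (horizontal axes) of 39 of the 40 genes between single libraries, V1 over V2, ligation-free over ligation-based, and the repeat over the first 700 U library, with bars for the 95% exact counting interval in the first 2 panels. In the first panel 37 of the 39 genes lie above 0, in the second RPL34 stands lowest at -0.95, and in the third, from the same RPFs, PSRP5 stands at -0.59 and PSRP3/2 at 0.47.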

How the data were processed

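RPFs were counted over the CDS of each gene by the authors, after adapter trimming with cutadapt, removal of rRNA, tRNA and snoRNA reads and alignment to TAIR10 (Ensembl Plants annotation 45) with STAR; for none of these programs was a version given in the sources used here. The deposited values are raw counts from featureCounts, strand-specific and including multi-mapping reads with 1 alignment kept. Sequencing reads and the tobacco libraries were not analysed here.

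Members and gene lists were chosen with earlier results of these data known. The values of 1 member, which is counted in all totals, are not reported here. Groups were compared in R 4.3.3 with edgeR 4.0.16 (quasi-likelihood, TMM; limma 3.58.1), keeping genes that reached 10 counts in 3 libraries (2 where a group has 2), with Benjamini-Hochberg adjustment over all genes and a threshold of 0.05. DESeq2 1.42.0, other scalings and filters and the omission of single libraries were alternatives. Ratios within libraries were tested by exact 2-sided permutation over libraries, and pairs of libraries by log2 ratios of CPM with exact 95% intervals (scipy 1.17.1). Python 3.11.15, pandas 2.3.3, numpy 2.4.6, Biopython 1.88 and matplotlib 3.10.9 were used. Values are given for all PSRPs and the RPL12 and RPL19 pairs, but not for each of them in every comparison. The 3 highest and 3 lowest genes per length are also given. So are up to 6 called genes in each direction of a comparison and the 3 largest ratios each way between paired libraries. Sequences were read from the RefSeq genome TAIR10.1, on which 99.8% of the nuclear CDS of the count tables start with ATG and the outer CDS ends of 99.7% match; both hold for all 40 members. The test was checked on simulated data: for MNase against RNase I, 25 of 49 genes changed by a log2 fold of 1 were called and 11 of 48 changed by 0.5, and for depleted against undepleted libraries 7 of 49 and 0 of 48. The changed genes were drawn at random from all genes tested, most of them with lower counts than the members. These shares therefore do not give the power for the 40 genes.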

Additional observations from a re-analysis of the deposited data

How the results depend on the processing

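No paired analysis was possible because the labels give no replicate numbers that the compared groups share. Of the values for single genes, 904 kept their direction and call over the alternatives, 68 lost and 8 gained a call, and 30 uncalled values changed sign. Of the counts, medians and ratios, 207 were classed as unchanged, 19 moved and 8 changed sign. A count or median was classed as unchanged if it stayed within a set distance of the main value. A ratio was so classed if its sign stayed the same, whatever its size or p-value. Leaving out a library in turn gave 6 to 11 genes higher with MNase, 8 to 16 lower in 14-day seedlings, 0 to 5 higher and 0 to 15 lower in the depleted libraries, with a median of -0.197 to 0.0315, and 1 to 2 higher and 6 to 14 lower in the kit libraries. With the repeat 700 U library, 2 genes were higher in 14-day seedlings and 1 lower in the depleted libraries. In the kit libraries DESeq2, or no filter on low counts, gave 1 higher gene. The V1 to V2 median fell to 0.15 with TMM. The log2 difference of the 50S to 30S ratio between 14-day and 8-day libraries was 0.0574 with the PSRPs except PSRP1 counted in their subunit (p = 0.1, exact permutation test). PSRP1, a 30S PSRP that was higher in 14-day seedlings (0.49), was not in this sum. With all PSRPs left out and without single libraries the difference was -0.0266 to 0.0122 for 14-day libraries (p = 0.2 or more, exact permutation test). It was -0.0783 to 0.0613 for depleted and -0.0283 to 0.0104 for kit libraries. Depth limits PSRP3/2 most, with 11 to 104 counts per library. The cause of these changes was not tested.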
